A study of Homo sapiens with 64 samples.

Results

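Of the 2442 peaks in the 24 deposited lists, 210 (8.60%) lay between 92260000 and 92330000 on chromosome 2 of hg19, next to the centromere. These peaks were selected on their position alone, in a window that had been picked because many peaks fell there, so the numbers of peaks that follow are a description and carry no test. Chromatin came from the human osteosarcoma cell line U2OS and from shTUBG U2OS cells, in which a stably expressed shRNA lowers the level of γ-tubulin. Cells of both lines were asynchronous (non-synchronous in the labels) or were collected 3, 7 or 9 h after release from a double thymidine block. Antibodies to γ-tubulin, PCNA, Mcm5 and FoxM1 were used in U2OS, and antibodies to γ-tubulin and PCNA in shTUBG U2OS. Every list stands for both samples of an antibody, a time and a line, so there was 1 list for each condition and no spread between replicates could be measured.

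The DNA beside a human centromere is built largely from satellite repeats, short units that follow each other many times, and holds few genes. PCNA is the ring that keeps DNA polymerases on the template, Mcm5 is a part of the helicase that is loaded at replication origins, and FoxM1 is a transcription factor of late cell cycle genes. γ-Tubulin nucleates microtubules and is also found in the nucleus. Cells released from a thymidine block pass through S phase and then enter G2 and mitosis.

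The 210 peaks occupied 57147 bp, from 92268981 to 92326127, and made up 84.7% of the 248 peaks on chromosome 2. The nearest chromosome 2 peaks outside the window were far away, at 90439206 to 90439405, where the score ranked 89th of 94 in the asynchronous shTUBG U2OS γ-tubulin list, and at 102618815 to 102619014, where it ranked 89th of 129 in the asynchronous U2OS FoxM1 list. The score is a whole number that the authors gave each peak, and it was used only to rank peaks within a list. No gene annotation of hg19 was used, so the position beside the centromere rests on the known layout of this assembly.

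Peaks of different lists often overlapped. When peaks that shared at least 1 bp were merged, the 210 peaks formed 26 loci, numbered here from 1 at the low coordinate. Merging chains peaks together, so peaks of different lists at a locus need not touch each other. At locus 12, the 9 h γ-tubulin peak of U2OS ended at 92309915 and the 9 h PCNA peak of U2OS began at 92310012. The loci were 250 to 2021 bp long and together covered 32% of the occupied stretch. Locus 1 stood apart, with 20593 bp to the next locus, and among the others the gaps had a median of 245 bp. The part from 92306690 onward held 18 loci and 151 peaks (71.9%) in 19438 bp.

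**Figure D1:**
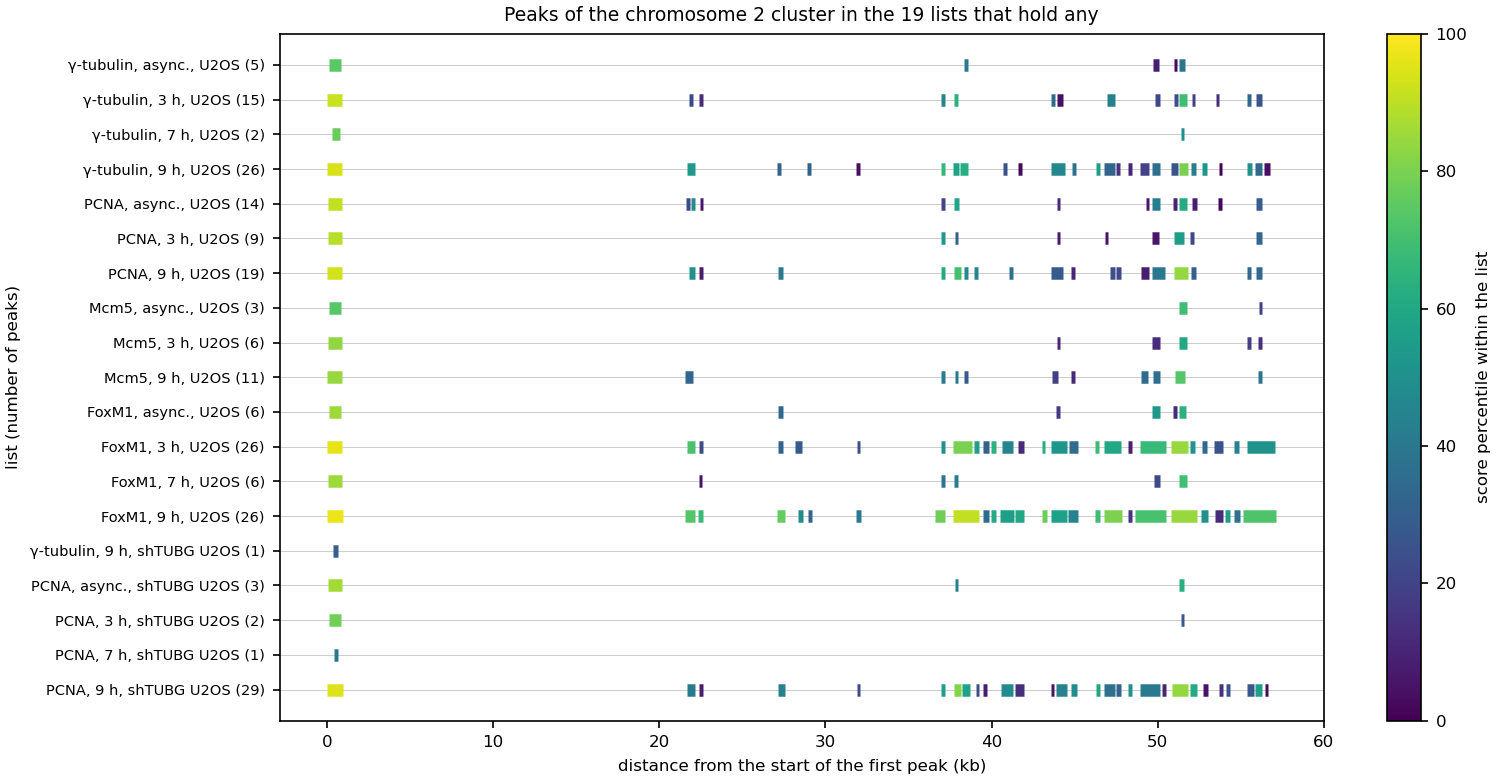
Each row is 1 of the 19 lists with a peak in the cluster, and bars show peaks by distance from the start of the first peak (kb), coloured by the percentile of the score within the list. The first locus is present in all 19 rows, while the right-hand part is filled in FoxM1 at 3 and 9 h and, at 9 h, in γ-tubulin of U2OS and in PCNA of both lines.

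No locus was limited to 1 list, against 45.2% of the 387 regions formed in the same way over the whole genome. There were 6 loci in 2 lists, 10 loci in 3 to 6 lists, 4 in 7 to 10 lists and 6 in 11 or more. The share found in 10 or more lists was 26.9% (7 of 26), compared with 16.3% of all regions, and 34.6% (9 of 26) were found with all 4 antibodies, compared with 19.6%. Peaks of different antibodies at a locus need not overlap each other. Since the window was picked for its many peaks, these shares are given as a description.

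Locus 1, at 92268981 to 92269931, was present in each of the 19 lists that had any peak in the cluster, and it held the highest score of the cluster in all 17 of these lists that had more than 1 cluster peak. Its γ-tubulin peaks in U2OS measured 746 bp (asynchronous), 890 bp (3 h), 512 bp (7 h) and 919 bp (9 h), with scores ranked 27th of 102, 11th of 123, 18th of 75 and 10th of 153. The PCNA peaks in U2OS were 873 bp in asynchronous cells, 875 bp at 3 h and 910 bp at 9 h, ranked 12th of 118, 12th of 104 and 10th of 130. Both proteins thus had their widest and best ranked peak at this place at 9 h. Mcm5 gave 702, 866 and 879 bp in asynchronous cells and at 3 and 9 h, ranked 27th of 98, 23rd of 132 and 18th of 109. FoxM1 gave 722, 915, 839 and 951 bp in asynchronous cells and at 3, 7 and 9 h, ranked 19th of 129, 9th of 202, 19th of 123 and 8th of 244. The 9 h peak was the widest of the 4 lists for FoxM1 as well.

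In shTUBG U2OS, locus 1 had a PCNA peak at each time. The widths were 836 bp (asynchronous), 753 bp (3 h), 252 bp (7 h) and 936 bp (9 h), ranked 13th of 87, 12th of 51, 16th of 25 and 9th of 155. The only γ-tubulin peak of this line in the cluster was also here, at 9 h, with a width of 316 bp and rank 48 of 67. All 19 peaks contained the same 252 bp, from 92269403 to 92269654, and their midpoints lay within 83.5 bp of each other. The lists therefore differed more in how far the peak extended to either side than in where it was centred.

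**Figure D2:**
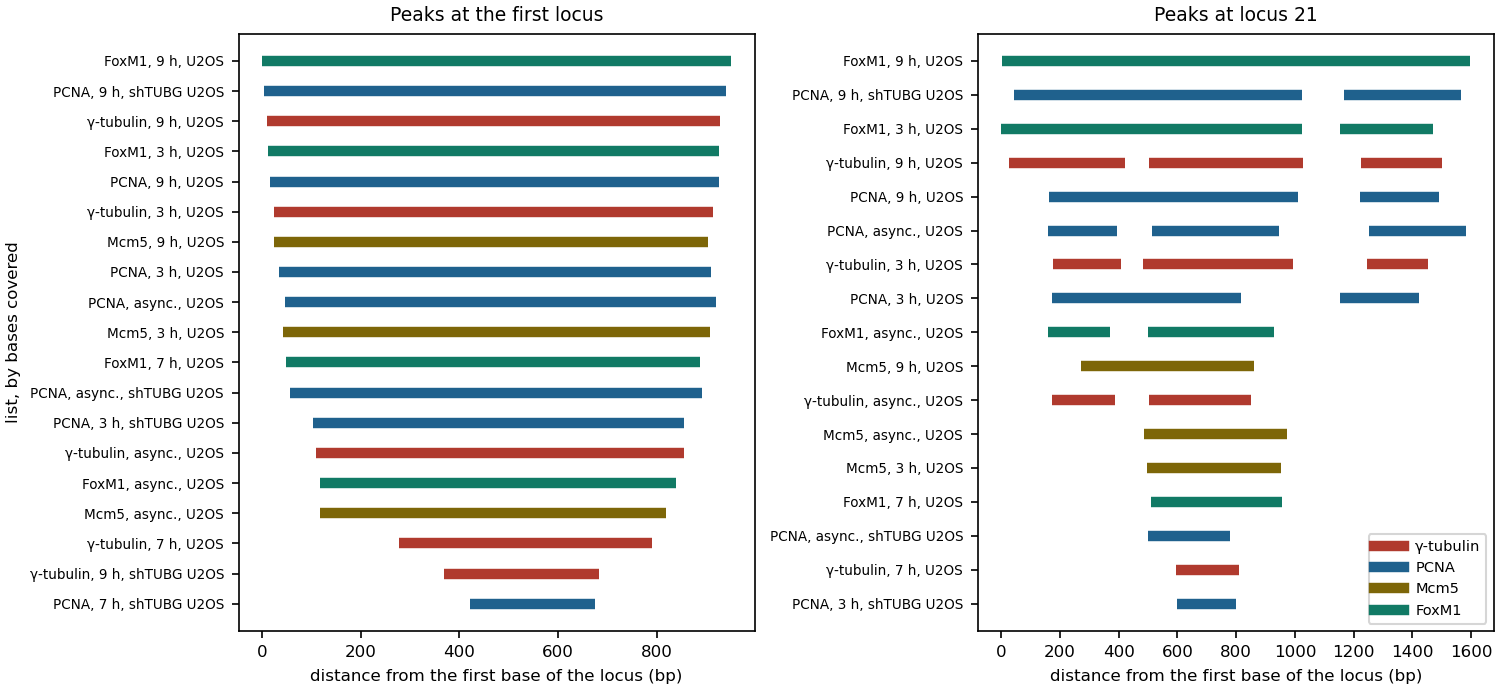
Bars show the peaks of each list at locus 1 and at locus 21, by distance from the first base of the locus (bp), ordered by the bases covered and coloured by antibody. At locus 1 all peaks cover a shared stretch, while locus 21 is split into 1, 2 or 3 peaks depending on the list.

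Locus 21, at 92319774 to 92321370, was second with 17 lists. The γ-tubulin lists of U2OS had it at each of the 4 times and those of shTUBG U2OS never, and it was found for PCNA at 3 times in each line, for Mcm5 at 3 times and for FoxM1 at 4. It held 1 peak in 8 lists, 2 in 6 lists and 3 in 3 lists. The 9 h FoxM1 list had a single peak of 1594 bp here, ranked 39th of 244, whereas the 9 h γ-tubulin list had peaks of 395, 524 and 274 bp, ranked 114th, 32nd and 90th of 153. The number of peaks in a list thus also reflects how a stretch was divided, and bases covered are given beside it below.

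The other loci in the most lists were locus 20 at 92317627 to 92319479 in 13 lists, locus 9 at 92306690 to 92308234 in 12 lists and locus 15 at 92312536 to 92313538 in 11 lists. Locus 26, at the far end from 92324107 to 92326127, was also in 11 lists. Loci 9 and 20 had γ-tubulin in U2OS (asynchronous, 3 h and 9 h) and never in shTUBG U2OS. Locus 9 was wider in the 9 h FoxM1 list, with 1 peak of 1545 bp ranked 23rd of 244, than in the 9 h γ-tubulin list, with peaks of 317 and 505 bp.

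The number of peaks differed between times in every antibody of U2OS. γ-Tubulin had 5 cluster peaks in the asynchronous list, then 15 (3 h), 2 (7 h) and 26 (9 h). As shares of their lists these were 4.90% (95% interval 1.61 to 11.1), 12.2% (6.99 to 19.3), 2.67% (0.325 to 9.30) and 17.0% (11.4 to 23.9). The value was highest at 9 h and lowest at 7 h. PCNA had 14, 9, 0 and 19 peaks at the same times, which were 11.9% (6.64 to 19.1), 8.65% (4.03 to 15.8), 0 and 14.6% (9.03 to 21.9). The PCNA list at 7 h held 17 peaks, all of them mitochondrial. For 0 of 17, a limit of 3 counts allows a share of up to 17.6%, and the exact interval reaches 19.5%. Mcm5 had 3 peaks in asynchronous cells (3.06%, 0.636 to 8.69), 6 at 3 h (4.55%, 1.69 to 9.63) and 11 at 9 h (10.1%, 5.15 to 17.3). At 7 h it had 0 of 29, which allows up to 10.3% by 3 counts and 11.9% by the exact interval.

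**Figure D3:**
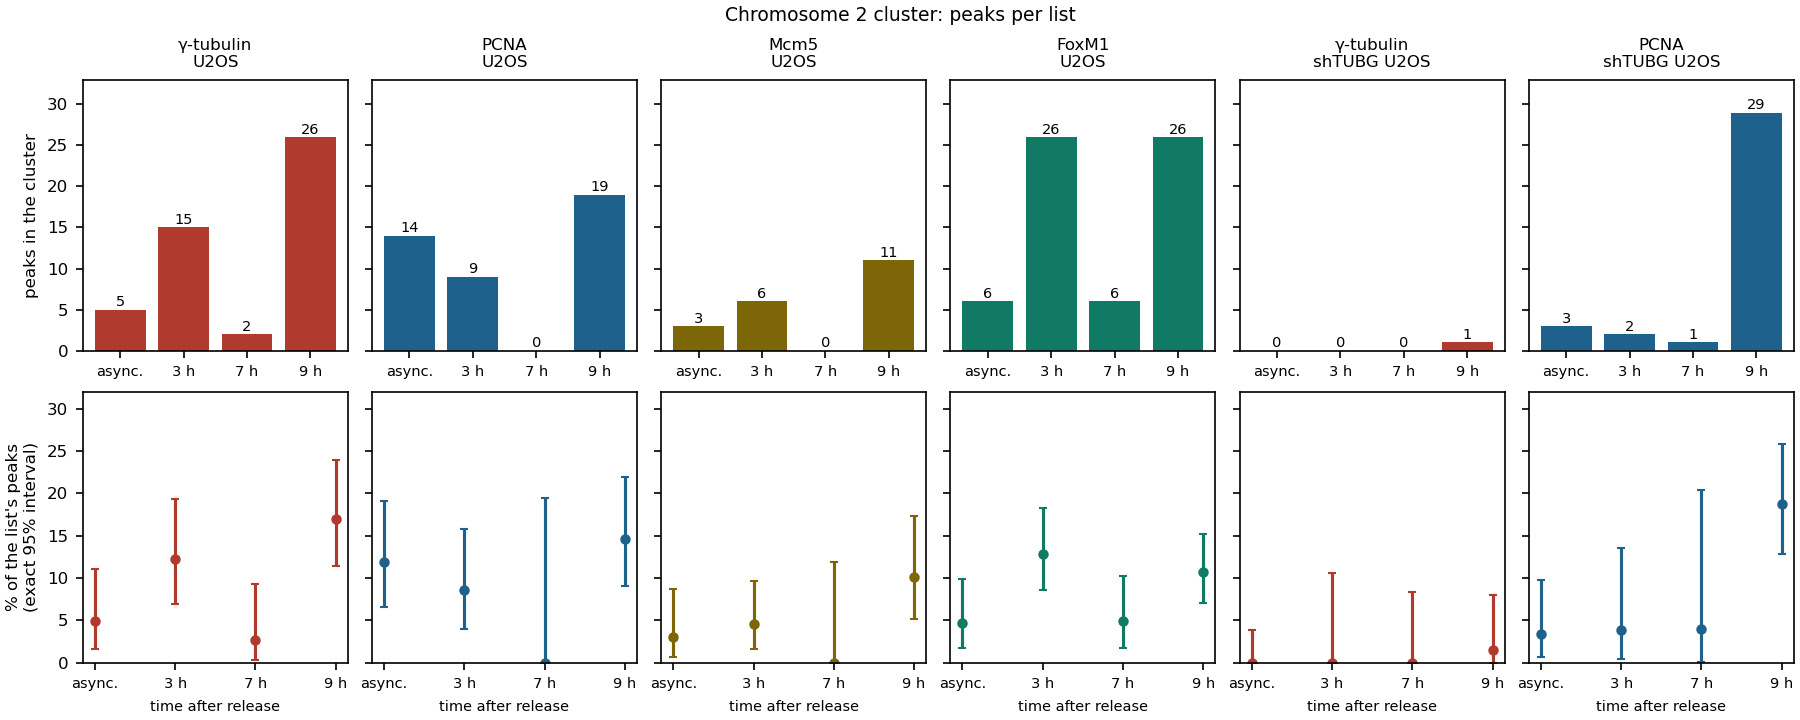
Upper panels show the number of cluster peaks in each list and lower panels their share of the list's peaks (%) with exact 95% intervals, by time, for the 4 antibodies in U2OS and the 2 in shTUBG U2OS. The number is highest at 9 h in each panel, shared with 3 h for FoxM1, where both lists hold 26 peaks.

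Over both lines, the 6 lists of 9 h contained 112 of the 210 peaks (53.3%), while they contained 35.1% of all peaks. The cluster made up 13.1% of the peaks at 9 h and 6.19% at the other times, 6.87 percentage points apart. Setting 9 h against the rest was chosen by these same counts, so the difference is a description and no interval is given. It was 2.57 points after peaks of a list within 1000 bp were joined, which unites both the pieces of a locus and neighbouring loci. The bases covered were 52808 in the 6 lists of 9 h and 41408 in the 18 other lists.

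All 26 loci were present at 9 h, 24 at 3 h, 11 in asynchronous cells and 6 at 7 h. The loci present only at 9 h were locus 6 at 92297858 to 92298149, with FoxM1 and γ-tubulin of U2OS, and locus 24 at 92323044 to 92323355, with FoxM1 and with PCNA of shTUBG U2OS. These 2 loci were 7.69% of the cluster, while 19.6% of all 387 regions were present only at 9 h. Most loci were thus also marked at another time, though often in only 1 list. This list was FoxM1 at 3 h for loci 5, 7, 10, 11, 12, 13, 14, 16, 17, 19, 22 and 25. γ-Tubulin of U2OS was present at 19 loci at 9 h, 11 at 3 h, 4 in asynchronous cells and 2 at 7 h. The lists with many cluster peaks were also long lists, with 118 peaks or more in each list that had at least 14 in the cluster, although lists of 123 (FoxM1 at 7 h) and 132 peaks (Mcm5 at 3 h) had 6, and whether read depth had a part in this was not tested.

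FoxM1 had the same number of cluster peaks, 26, at 3 h and at 9 h, and 6 in asynchronous cells and 6 at 7 h. The shares were 12.9% of the list at 3 h (8.58 to 18.3), 10.7% at 9 h (7.08 to 15.2), 4.65% in asynchronous cells (1.73 to 9.85) and 4.88% at 7 h (1.81 to 10.3). Summed over 3 and 9 h the share was 11.7%, and summed over the other FoxM1 lists 4.76%, 6.90 points apart. This pairing of times was chosen by these same counts, so its size is a description and no interval is given. In the 100 peaks of highest score of each list, an alternative chosen after the data were seen, there were 12 cluster peaks at 3 h, 14 at 9 h, 4 in asynchronous cells and 5 at 7 h.

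This difference changed sign when peaks of a list within 1000 bp were joined, since the 3 and 9 h lists then had 7 cluster peaks each, asynchronous cells 4 and 7 h 5, and the shares differed by -0.944 points. The bases covered remained apart, with 14871 bp at 3 h and 17970 bp at 9 h, compared with 2320 bp in asynchronous cells and 2321 bp at 7 h. FoxM1 at 9 h was present at all 26 loci and at 3 h at all but loci 6 and 24. The widest peak of the cluster was its 9 h peak of 2021 bp at locus 26, where the 3 h peak was 1700 bp wide. The loci that carried FoxM1 and no other antibody numbered 4, each with a peak at both 3 and 9 h. They were locus 5 at 92297172 to 92297604, locus 11 at 92308926 to 92309247, locus 14 at 92311996 to 92312298 and locus 25 at 92323560 to 92323909, the last of them named after the values were seen. They were 15.4% of the cluster, while 31.3% of all regions carried FoxM1 alone.

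The labels hold a single set of U2OS input samples for each time, and how inputs entered the lists is not given. The positions of the proteins are therefore given side by side, and the matches between them are not taken as independent support. γ-Tubulin marked 20 loci in U2OS, PCNA 14, Mcm5 9 and FoxM1 26. Mcm5 peaks that shared at least 25% of both peaks with PCNA of the same time, which the study takes as active origins, were 19 of the 20 in the cluster (95%, 75.1 to 99.9). Of the 20 Mcm5 peaks, 19 matched γ-tubulin and 11 matched FoxM1 by the same rule. The second number depended on the rule, since by 1 bp both were 19. At locus 26 at 9 h, for instance, the Mcm5 peak was 234 bp wide and the FoxM1 peak 2021 bp. Of the 48 γ-tubulin peaks of U2OS, 30 matched PCNA of the same time (62.5%, 47.4 to 76.0). The same shares over all peaks of these lists were not computed, so whether the cluster differs from the rest is not known. At 3 h, 9 of 15 γ-tubulin peaks matched PCNA of that time, 11 that of asynchronous cells and 14 that of 9 h. Of the 26 peaks at 9 h, 17 matched PCNA of 9 h, 11 that of asynchronous cells and 9 that of 3 h. Both orders followed the number of cluster peaks in the PCNA list, which was 9 at 3 h, 14 in asynchronous cells and 19 at 9 h. The matches therefore cannot show whether the proteins coincided in time.

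In shTUBG U2OS, γ-tubulin had 1 peak in the cluster among 236 (0.424%, 0.0107 to 2.34), compared with 48 of 453 in U2OS (10.6%, 7.92 to 13.8), a difference of -10.2 points (-13.4 to -6.88). The bases covered were 316 and 17658. By time, 0 of 94 peaks lay in the cluster in asynchronous cells, 0 of 33 at 3 h and 0 of 42 at 7 h. A limit of 3 counts allows shares of up to 3.19, 9.09 and 7.14%, and the exact intervals reach 3.85, 10.6 and 8.41%. At 9 h, 1 of 67 peaks lay in the cluster (1.49%, 0.0378 to 8.04). For asynchronous cells the difference was -4.90 points (-11.1 to 0.162). It was -12.2 after 3 h (-19.3 to -0.407), -2.67 after 7 h (-9.30 to 6.06) and -15.5 after 9 h (-22.6 to -6.90). The share was lower in shTUBG U2OS at all 4 times, though U2OS had only 5 cluster peaks in asynchronous cells and 2 at 7 h. The intervals cover counting error only, and peaks of a list are not independent, so they are no test between the lines. Among the 26 loci, 19 had γ-tubulin in U2OS but never in shTUBG U2OS (73.1%), compared with 26.9% of all regions. All regions include those without γ-tubulin in U2OS, whereas 20 of the 26 loci had it. These shares therefore do not compare how much was lost in shTUBG U2OS. A lower γ-tubulin share in that line was also found in a cluster on chromosome 10, given below.

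PCNA peaks of the cluster were found in shTUBG U2OS at every time. There were 3 in asynchronous cells (3.45%, 0.717 to 9.75), 2 at 3 h (3.92%, 0.478 to 13.5), 1 at 7 h (4%, 0.101 to 20.4) and 29 at 9 h (18.7%, 12.9 to 25.8). The 9 h list thus held 29 of the 35 peaks, on 12541 of 15068 bp. Summed over times, the share was 11% (7.79 to 15) in shTUBG U2OS and 11.4% (8.33 to 15.1) in U2OS, a difference of -0.376 points (-5.27 to 4.63). Without the 9 h lists, the difference was -5.94 points (-11 to -0.555). At 9 h, PCNA of shTUBG U2OS was present at 21 loci and PCNA of U2OS at 13. All 19 U2OS peaks at 9 h matched a peak of shTUBG U2OS by 25% of both, and 19 of the 29 peaks of shTUBG U2OS matched U2OS.

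PCNA of shTUBG U2OS marked 7 loci (26.9%) that PCNA of U2OS did not mark at any time, compared with 12.9% of all regions. All regions include those without PCNA in shTUBG U2OS, whereas 21 of the 26 loci had it. The 3 first of the 7 in genome order were locus 7 at 92300820 to 92301128, locus 10 at 92308456 to 92308844 and locus 13 at 92310409 to 92310960. At all 3 the PCNA peak was in the 9 h list, which held 29 of the 35 cluster peaks of PCNA in this line. FoxM1 of U2OS was present at these loci at 3 and 9 h, but it marked 24 of the 26 loci at 3 h and all 26 at 9 h.

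Scores were lower at the other loci than at locus 1 in their medians and quartiles, though the ranges overlapped between lists. On a scale where 100 is the highest score of the list, the 19 peaks of locus 1 had a median percentile of 85.4 (29.9 to 97.1) and the 191 other peaks a median of 36.9 (0.654 to 91.0). The lower and upper quartiles were 77.5 and 92.5 at locus 1 and 20.5 and 55.5 at the other loci. Over all 210 peaks, 61 were in the lowest 25% of their list and 27 in the highest 25%, of which 15 were at locus 1. In the 9 h FoxM1 list, 17 of the 26 cluster peaks reached the median score of the list. The lists with the most loci had the higher medians among FoxM1, with 60.1 at 9 h and 50 at 3 h, compared with 43.8 in asynchronous cells and 40 at 7 h. This was not so for PCNA, where the 29 peaks of shTUBG U2OS at 9 h had a median of 40 and the 3 of asynchronous cells a median of 62.6.

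**Figure D4:**
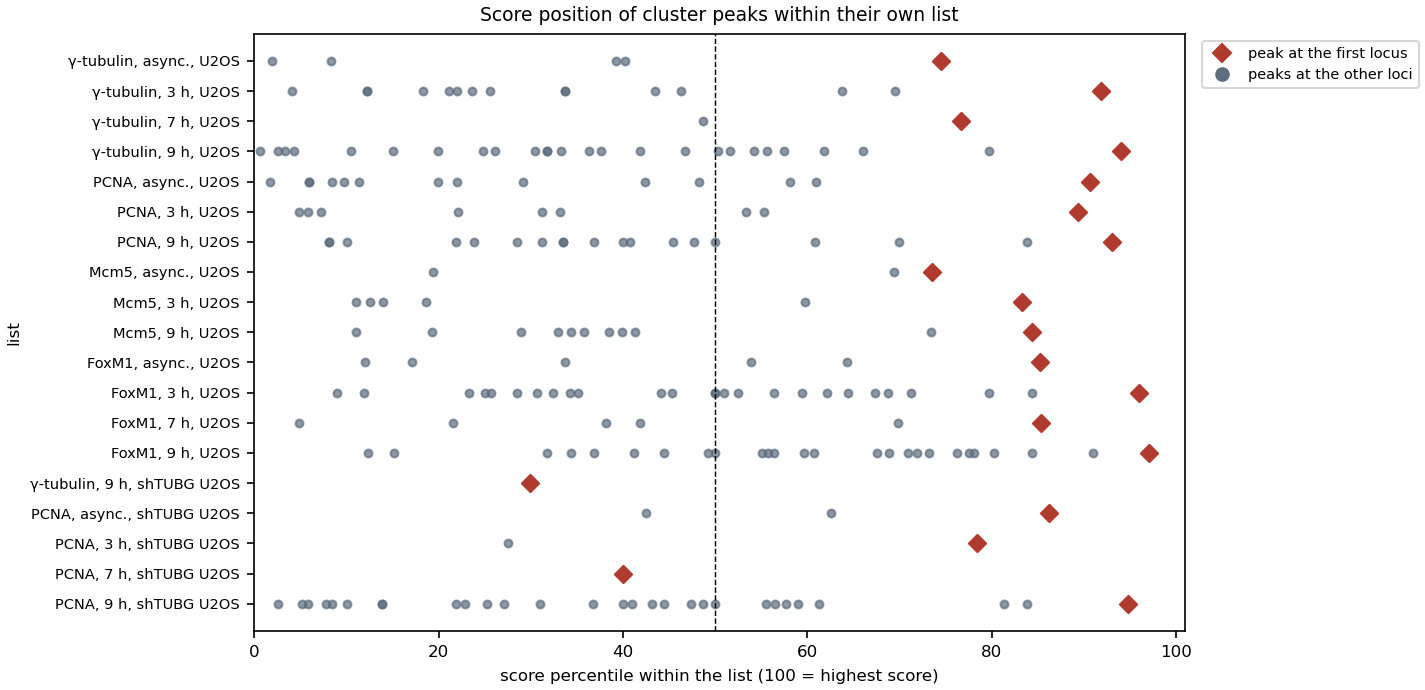
Each point is a cluster peak at the percentile of its score within its own list (100 is the highest), with locus 1 as diamonds and the other loci as circles, and the dashed line marks the middle of a list. Locus 1 is the rightmost point of each row and the circles lie mostly left of the line.

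The peaks were 200 to 2021 bp wide with a median of 317 bp, against a median of 351 bp for the 2232 other peaks. The widths at locus 1 had a median of 866 bp and those at the other loci a median of 305 bp. In the cluster of chromosome 10 beside its centromere, at 42360689 to 42409437, the 242 peaks had a median width of 536 bp and a median score percentile of 83.6, compared with 40 here. That cluster held 28.1% of its peaks at 9 h, against 53.3% here, and 5.38% of the FoxM1 peaks at 3 and 9 h, against 12.3% in the other FoxM1 lists. Of the γ-tubulin peaks, that cluster held 7 of 236 (2.97%) in shTUBG U2OS and 56 of 453 (12.4%) in U2OS. The lower γ-tubulin share in shTUBG U2OS was thus not particular to chromosome 2. The differences between the clusters were not tested.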

How the data were processed

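ChIP-seq of 64 samples in 32 groups of 2 (48 immunoprecipitates and 16 inputs) was performed after digestion with micrococcal nuclease, and the authors deposited 24 peak lists. Per the labels, the submitters' processing notes name hg19, Bowtie2 2.1.0, SAMtools 1.7-13 and MACS2. How samples and inputs were combined, duplicates and reads that match several places were treated, and how deep each library was are not given in the sources used here. Each deposited peak has a whole-number score of unstated meaning, used only within a list. Input samples were not used here.

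Members and lists were chosen with earlier results of these data known. Loci were formed by merging peaks that shared at least 1 bp. Those named were the 5 in the most lists, and up to 3 each with γ-tubulin in U2OS only, at 9 h only, with FoxM1 alone and with PCNA in shTUBG U2OS only. Shares carry 95% Clopper-Pearson intervals, and differences of shares combine these by square-and-add. Intervals and the limit for 0 (3 counts) cover counting error only, and peaks of a list are not independent. No test was made. Scripts used Python 3.11.15, numpy 2.4.6, pandas 2.3.3, scipy 1.17.1 and matplotlib 3.10.9, and were tested on simulated data.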

Additional observations from a re-analysis of the deposited data

Results flagged for a closer look

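The share of PCNA peaks in the cluster moved in opposite directions between the lines at different times. In shTUBG U2OS minus U2OS it was -8.42 percentage points in asynchronous cells (95% interval -16.2 to -0.232) and -4.73 at 3 h (-12.7 to 5.86), but 4 at 7 h (-15.9 to 20.4) and 4.09 at 9 h (-5.21 to 13.1). As each time and line has 1 list, whether the times differ was not tested. At 7 h, 1 of 25 peaks stands against 0 of 17, and all 17 were mitochondrial, so no share without mitochondrial peaks exists there. Without mitochondrial peaks the 9 h shares were close, 18.8% of 154 peaks in shTUBG U2OS and 17.9% of 106 in U2OS. In asynchronous cells they were 4.29 and 14.6%, and at 3 h 4.55 and 10.3%.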

How the results depend on the processing

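No paired analysis was possible because the lists cover both samples of a group and the peaks carry no replicate number, and no replicate could be left out for the same reason. For 11 results, 79 values were computed under other settings. Of these, 59 stayed within the interval (counts: within 1.5 times) of the value reported, 16 moved and 4 changed sign. Some of the 59 could not move. Widening the window by 100 kb on each side added no peak, and leaving out 7 h removed no Mcm5 cluster peak. Unless the construction shows it, the cause was not tested.

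The share of all peaks in the cluster, 8.60%, was 6.30% for peaks whose score reached the median of the list, 7.47% with peaks of a list within 1000 bp merged, 12.3% on chromosomes 1 to 22 and X, where fewer peaks remain, and 5.32% with the window narrowed by 10 kb on each side, which leaves out locus 1 and the far end. The window narrowed in this way gave -5.96 points for γ-tubulin between lines, and the median-score filter -6.09. For PCNA between lines that filter gave 2.03 points, leaving out asynchronous cells 2.70 and leaving out 9 h -5.94. With peaks within 1000 bp merged, the 9 h difference was 2.57 points, the FoxM1 difference -0.944 points, the median percentile 47.1, the median width 866 bp and the number of loci, merged over all lists, 7. The median width was 514 bp with the median-score filter. The share of Mcm5 peaks with PCNA, 95%, was 100% under that filter, with the narrowed window and without 3 h. The difference between γ-tubulin and FoxM1 at Mcm5 peaks, 40 points, was 0 with overlap by 1 bp and -16.7 points with the median-score filter, where 6 Mcm5 peaks remain. Read depth is unknown, and its part in the numbers of peaks was not tested.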

Other observations

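Chromosome 2 held a smaller group of 20 peaks on the same side of the centromere, at 89872094 to 89879983, in 7 lists. FoxM1 had 5 of them at 9 h and 4 at 3 h, and PCNA of shTUBG U2OS had 4 at 9 h. In U2OS, PCNA had 2 in asynchronous cells and 2 at 9 h, and γ-tubulin had 1 at 3 h and 2 at 9 h. Each of these 7 lists had at least 14 peaks in the cluster beside the centromere, and no list with fewer had a peak here. This group was looked at after its values were seen.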
